A study of Homo sapiens with 6 samples.

Results

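The genes described here are 10 chemokines of keratinocytes: CXCL1, CXCL2, CXCL3, CXCL8, CXCL10, CXCL11, CXCL16, CCL2, CCL5 and CCL20. They were taken by gene symbol from the platform annotation, which gave them 16 of 54675 probe sets, none of them shared with another gene. All 10 are among the 19775 genes that have a probe set of their own. Transcripts were measured in HaCaT cells, a spontaneously immortalised human keratinocyte line, grown in DMEM with serum. Of the cultures, 3 spent 12 h in a negative pressure incubator at a gradient of 125 mmHg and 3 spent the same time at ambient pressure, with an Affymetrix array for each culture. The values are log2 expression, so a difference of 1 is a doubling, and each gene is read from its brightest probe set unless another is named.

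Chemokines are small secreted proteins that guide leukocytes along gradients through G protein-coupled receptors. Keratinocytes make them on injury or infection, mainly in response to interleukin-1, TNF, interleukin-17 and interferons. CXCL1, CXCL2, CXCL3 and CXCL8 carry the residues Glu-Leu-Arg before their CXC motif, bind CXCR2 and attract neutrophils. CXCL10 and CXCL11 lack these residues, are induced by interferon and bind CXCR3 on activated T cells. CXCL16 is made as a membrane protein, binds CXCR6 and is released by ADAM10. CCL2 attracts monocytes through CCR2, CCL5 attracts T cells and monocytes, and CCL20 attracts CCR6-bearing dendritic and T cells.

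The cells matched their label by 6 keratinocyte markers that have a probe set of their own, whose means ran from 8.35 for DSG3 to 12.50 for SFN. The leukocyte genes PTPRC, CD3E, CD14 and TYROBP had means of 2.30, 4.87, 3.85 and 2.26. The fibroblast markers ran from 3.04 for COL3A1 to 6.78 for COL1A1. Of the members, CXCL10, CXCL11, CCL5 and CCL20 had means of 3.88, 2.28, 4.78 and 4.83, all below CD3E. CXCL2 and CXCL3, at 5.30 and 5.57, were below COL1A1. The summed level of the 4 T cell markers ran from 5.75 to 6.20 under negative pressure and from 5.89 to 6.01 at ambient pressure, and that of the 4 myeloid markers from 5.15 to 5.46 and from 5.01 to 5.38. Within groups, arrays correlated across probe sets at 0.989 to 0.997, and at 0.992 or less where replicate 3 was part of the comparison. The replicate 3 arrays of both groups stood apart from the rest, so member results that lean on them are also given without them. Genes that are not members are given with all arrays only.

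The promoters of the chemokines are shown first because CXCL1, CXCL2 and CXCL3 are nearly alike in theirs. RefSeq promoter sequences (build GRCh38.p14) were at hand for 7 of the 10 genes: CXCL1, CXCL2, CXCL3, CXCL8, CXCL10, CXCL11 and CCL20. The 100 bases before the annotated start are printed 5′ to 3′ on the strand of the gene. Capitals mark matches to the RELA kappa B consensus or to the fixed sequence GGAATTTCC. CXCL1 lies at chr4:73869293-73869392 (plus strand), CXCL2 at chr4:74099196-74099295 (minus), CXCL3 at chr4:74038690-74038789 (minus), CXCL8 at chr4:73740469-73740568 (plus) and CCL20 at chr2:227813742-227813841 (plus).
CXCL1: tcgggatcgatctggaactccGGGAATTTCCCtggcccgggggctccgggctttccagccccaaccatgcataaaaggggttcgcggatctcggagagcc
CXCL2: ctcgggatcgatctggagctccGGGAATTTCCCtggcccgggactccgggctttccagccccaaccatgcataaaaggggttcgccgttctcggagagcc
CXCL3: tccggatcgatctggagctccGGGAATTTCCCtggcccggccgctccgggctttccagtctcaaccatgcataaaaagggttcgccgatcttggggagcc
CXCL8: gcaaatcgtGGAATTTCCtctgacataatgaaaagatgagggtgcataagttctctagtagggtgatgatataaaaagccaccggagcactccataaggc
CCL20: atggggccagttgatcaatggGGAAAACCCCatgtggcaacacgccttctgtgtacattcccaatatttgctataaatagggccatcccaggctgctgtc

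Over these 100 bases CXCL1 was 94.1% identical to CXCL2 and 90.0% to CXCL3, and CXCL2 was 89.1% identical to CXCL3. CXCL8 was 45.3% identical to CXCL1, close to the 43.1% between CXCL10 and CXCL1. The kappa B match stood at -79 to -70 from the start in CXCL1 and CXCL3 and at -78 to -69 in CXCL2, and it overlapped a second match on the opposite strand. The consensus was found in 6 of the 7 chemokine windows, counting 250 bases before and 50 after the start on both strands, and in 11.3% of 35116 promoters of that length. The CXCL8 window held no match to it. The fixed sequence GGAATTTCC, a search chosen after the sequences were seen, was also in 6 of 7 windows, all but that of CCL20, and in 0.461% of all promoters. In CXCL8 this fixed sequence lay at -91 to -83, with an AP-1 match, TGACTCA, at -137 to -131. CXCL10 held kappa B matches at -177 to -168 and -122 to -113 and the only interferon-stimulated response element match (TTTC, then any 2 bases, then TTTC) among the 7 windows, at -221 to -212. That motif was in 3.57% of all promoters. CXCL11 held a kappa B match at -76 to -67, the AP-1 motif at -87 to -81, and the STAT motif TTCNNNGAA, which was in 7.66% of all promoters, at -240 to -232 and again past the start. AP-1 motifs (TGACTCA or TGAGTCA) were in 2 of the 7 windows and in 4.95% of all promoters, and the C/EBP motif TTGCGCAA in none of the 7 and in 0.151%. These are matches of letters, the CXCL1, CXCL2 and CXCL3 windows are copies of each other in large part, and no binding was measured.

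Under negative pressure the 4 neutrophil-attracting chemokines CXCL1, CXCL2, CXCL3 and CXCL8 stood lower on all 3 arrays than on any ambient array, by 1.39-fold to 1.68-fold. CCL2 and CXCL10 stood higher on all 3, by 1.36-fold and 1.26-fold. The groups overlapped for CXCL11, CXCL16, CCL5 and CCL20. None of the 10 passed an adjusted p of 0.05 in limma over all genes, where 182 of 19775 genes did (0.920%). Of the 10, 6 had an unadjusted p under 0.05 in limma, against 11.7% of all genes. The groups did not overlap for 6 of 10 members, against 17.3% of all genes: 4 were wholly lower (6.96% of all genes) and 2 wholly higher (10.3%). The median log2 difference was -0.19 over the members and 0.01 over all genes. In RNA of whole cultures, fewer cells that make a transcript and less of it per cell cannot be told apart.

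With the replicate number as a block, which compares arrays of the same number, 5 of the 10 members passed, against 4.94% of all genes. The labels do not state that arrays of the same number were paired. CXCL8, CXCL3, CXCL2 and CXCL1 fell (2.06% of all genes fell in this fit) and CCL2 rose (2.87% of all genes rose). Limma adjusted p-values with the replicate block were 0.0106 for CXCL8, 0.0210 for CXCL3, 0.0279 for CXCL2, 0.0373 for CXCL1 and 0.0374 for CCL2. With the block but without both replicate 3 arrays, which leaves 4 arrays, none of these 5 passed. The log2 fold changes were then -0.64 for CXCL8 (adjusted p = 0.0819), -0.61 for CXCL3 (0.0926), -0.44 for CXCL2 (0.124), -0.37 for CXCL1 (0.158) and 0.48 for CCL2 (0.0833), against -0.75, -0.60, -0.73, -0.48 and 0.44 with all arrays. CXCL3 and CCL2 thus differed as much without those arrays, whereas the CXCL2 difference was the one most reduced. With array weights in place of the block 5 members passed (5.79% of all genes): CXCL1, CXCL3, CXCL8, CCL2 and CXCL10.

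**Figure D1:**
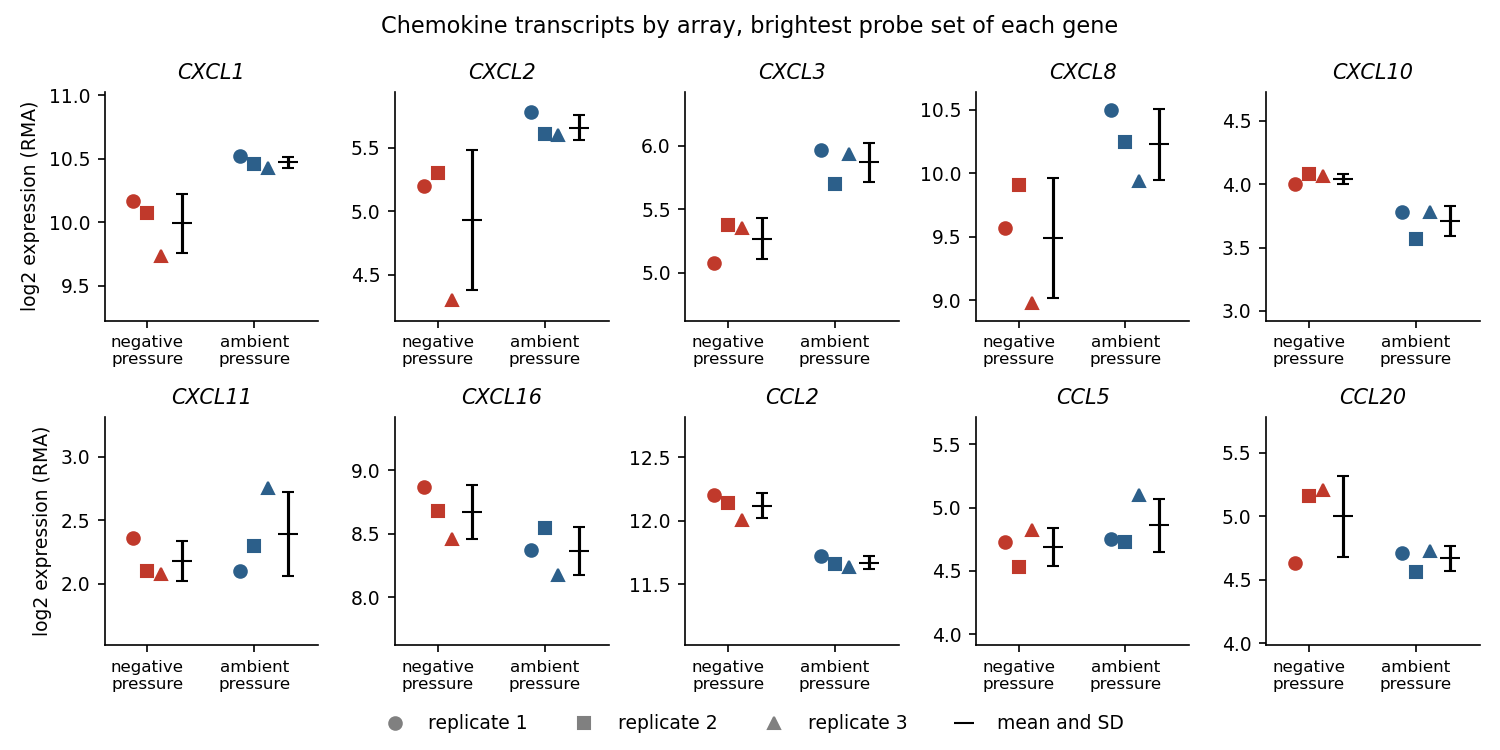
Log2 expression of each chemokine on each array, negative pressure (red) left of ambient pressure (blue), with the mean and SD of 3 arrays beside them; every panel spans the same range of log2 units. CXCL1, CXCL2, CXCL3 and CXCL8 lie wholly lower and CXCL10 and CCL2 wholly higher under negative pressure.

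CXCL8, interleukin-8, is the main neutrophil attractant of human skin. It measured 9.57, 9.91 and 8.98 on the negative pressure arrays of replicates 1, 2 and 3, against 10.50, 10.25 and 9.94 on the ambient arrays. All 3 negative pressure values lay below the lowest ambient one, and replicate 3 was the lowest array in each group. The log2 fold change was -0.75 ± 0.23 (SE, n = 3 each; 95% interval -1.27 to -0.22; limma adjusted p = 0.223). Leaving out negative pressure replicate 3 gave -0.49, and leaving out the ambient array of that number too gave -0.64. The dimmer CXCL8 probe set gave -0.71 (8.49, 8.62 and 7.54 under negative pressure, against 9.08, 9.14 and 8.54 at ambient pressure). There replicate 2 under negative pressure was slightly above ambient replicate 3, so the groups overlapped.

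CXCL1, also known as GRO-alpha, measured 10.17, 10.07 and 9.73 under negative pressure, against 10.52, 10.46 and 10.43 at ambient pressure. The SD of the ambient cultures was 0.04, and each negative pressure culture was below them. Its log2 fold change was -0.48 ± 0.14 (SE; 95% interval -0.79 to -0.17; limma adjusted p = 0.177), and -0.35 without negative pressure replicate 3. CXCL1 has 1 probe set on the array.

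CXCL3, or GRO-gamma, came closest to the threshold of the 10 members. It measured 5.08, 5.38 and 5.35 under negative pressure, against 5.97, 5.70 and 5.94 at ambient pressure, with no overlap. The log2 fold change was -0.60 ± 0.13 (SE; 95% interval -0.90 to -0.30; limma adjusted p = 0.0877), and it lay between -0.69 and -0.51 whichever single array was left out. The low array of CXCL3 under negative pressure was replicate 1, not replicate 3.

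CXCL2, or GRO-beta, measured 5.20, 5.30 and 4.30 under negative pressure, against 5.78, 5.61 and 5.60 at ambient pressure. Replicate 3 under negative pressure was far below the other arrays, and the remaining values of that group were still under every ambient value. The log2 fold change was -0.73 ± 0.24 (SE; 95% interval -1.26 to -0.20; limma adjusted p = 0.245), and it was -0.41 without negative pressure replicate 3. The other CXCL2 probe sets were dim, with means of 2.34 and 2.02, and stood at 0.18 and 0.14. The brighter of those 2 was wholly higher under negative pressure (2.40, 2.43 and 2.46, against 2.34, 2.31 and 2.10). The mean of all 3 probe sets gave -0.14, so the CXCL2 difference rests on its brightest probe set. That probe set, like the brightest one of CXCL8, is of the class in whose name Affymetrix marks probes that can match other transcripts, and RNA of the close paralogs CXCL1, CXCL2 and CXCL3 may therefore be mixed in its signal.

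**Figure D2:**
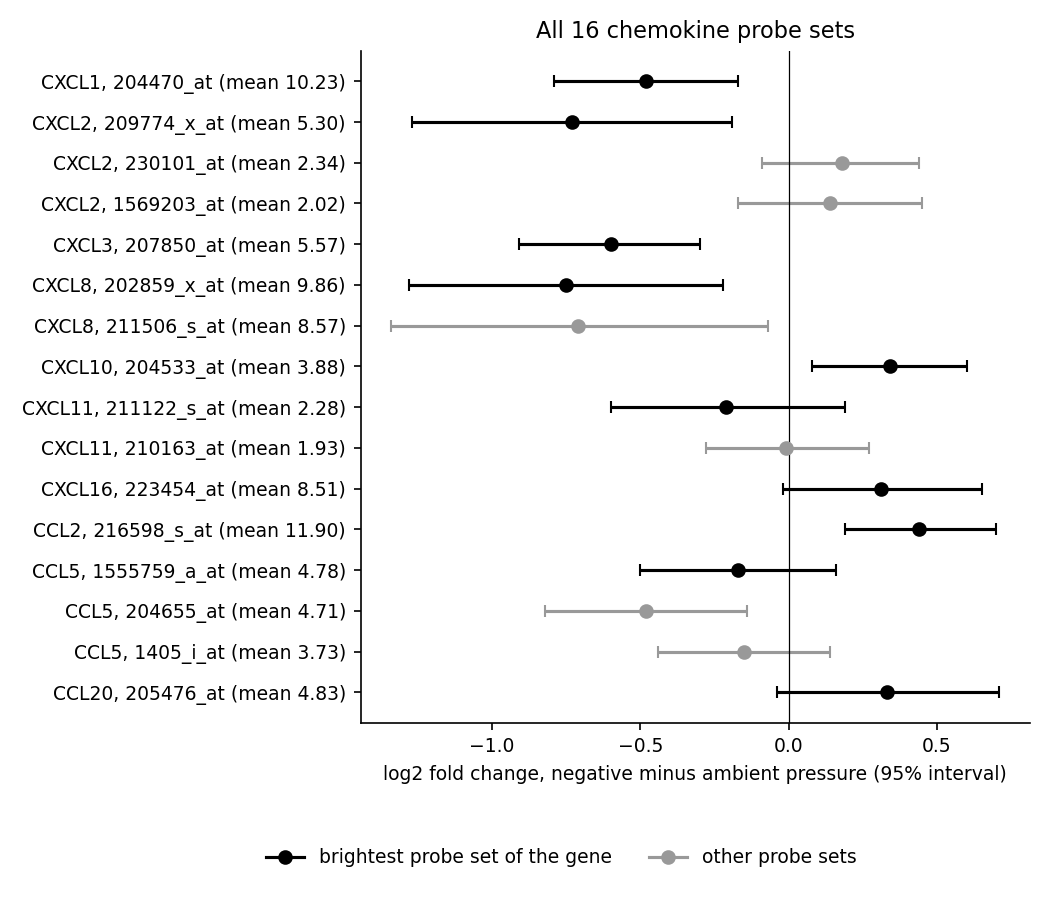
Log2 fold change (negative minus ambient pressure) of all 16 chemokine probe sets with 95% intervals from the fit over all probe sets; black marks the brightest probe set of a gene, grey the others, and the mean over 6 arrays is in brackets. Both CXCL8 probe sets lie below 0, whereas the 2 dim CXCL2 probe sets lie above 0, opposite to the bright one.

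CCL2, the monocyte attractant MCP-1, stood the other way, higher under negative pressure. It measured 12.20, 12.14 and 12.01 under negative pressure, against 11.72, 11.66 and 11.64 at ambient pressure. Every negative pressure culture was above every ambient one, and the SD was 0.10 and 0.05. The log2 fold change was 0.44 ± 0.11 (SE, n = 3 each; 95% interval 0.19 to 0.69; limma adjusted p = 0.129), and 0.40 to 0.50 whichever single array was left out. CCL2 has 1 probe set.

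CXCL10, the interferon-inducible protein IP-10, measured 4.00, 4.08 and 4.06 under negative pressure, against 3.78, 3.57 and 3.78 at ambient pressure. These signals were dim but did not overlap, and the log2 fold change was 0.34 ± 0.11 (SE; 95% interval 0.08 to 0.59; limma adjusted p = 0.267, with the replicate block 0.119). CXCL11 gave no measurable difference: its probe sets had means of 2.28 and 1.93, the brighter one above only 11.8% of genes, and stood at -0.21 (95% interval -0.60 to 0.18) and -0.01. Without both replicate 3 arrays CXCL11 stood at 0.03.

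CXCL16, the membrane-bound CXCR6 ligand, measured 8.87, 8.68 and 8.46 under negative pressure, against 8.37, 8.54 and 8.17 at ambient pressure. The groups overlapped, although each negative pressure array was above the ambient array of the same number, by 0.50, 0.15 and 0.29. The log2 fold change was 0.31 ± 0.15 (SE; 95% interval -0.02 to 0.64; limma adjusted p = 0.466). ADAM10 and ADAM17, the sheddases that act on membrane-bound chemokines, stood at 0.02 (adjusted p = 0.984) and 0.06 (0.937).

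CCL20, the CCR6 ligand, measured 4.63, 5.16 and 5.21 under negative pressure, against 4.71, 4.56 and 4.73 at ambient pressure. Replicate 1 under negative pressure lay within the ambient range and the other 2 cultures above it, for a log2 fold change of 0.33 ± 0.16 (SE; 95% interval -0.04 to 0.70; limma adjusted p = 0.491). It was 0.52 without negative pressure replicate 1. CCL5, also called RANTES, depended on the probe set. Its brightest one (mean 4.78) stood at -0.17 with overlapping groups. A probe set of similar brightness (mean 4.71) measured 4.37, 4.37 and 4.67 under negative pressure, against 4.82, 4.82 and 5.21 at ambient pressure, a difference of -0.48 with no overlap (limma adjusted p over all probe sets 0.283). The dimmest CCL5 probe set, at a mean of 3.73, stood at -0.15.

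Across all 16 probe sets none passed over all 54613 probe sets tested, of which 262 did (0.480%). Of the 16, 8 had an unadjusted p under 0.05 in limma, a share that was not counted over all probe sets. The groups were apart for 8 of the 16 (15.0% of all probe sets): 5 lower and 3 higher. With the replicate block 2 passed (2.27% of all probe sets), and both belonged to CXCL8, with limma adjusted p of 0.0312 and 0.0258.

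The differences within each replicate number had 1 sign for 8 of 10 members. CXCL8 differed by -0.93, -0.35 and -0.96 in replicates 1, 2 and 3, and CXCL2 by -0.58, -0.31 and -1.30. CXCL1 differed by -0.35, -0.40 and -0.70, and CXCL3 by -0.90, -0.32 and -0.59. Replicate 3 differed most for CXCL8, CXCL2 and CXCL1, and replicate 1 for CXCL3. Replicate 2 differed least for CXCL8, CXCL2 and CXCL3, and replicate 1 for CXCL1. CCL2 differed by 0.48, 0.49 and 0.37. CXCL11 and CCL20 were the 2 members whose sign varied, with CXCL11 at 0.26, -0.20 and -0.67 and CCL20 at -0.08, 0.61 and 0.48.

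**Figure D3:**
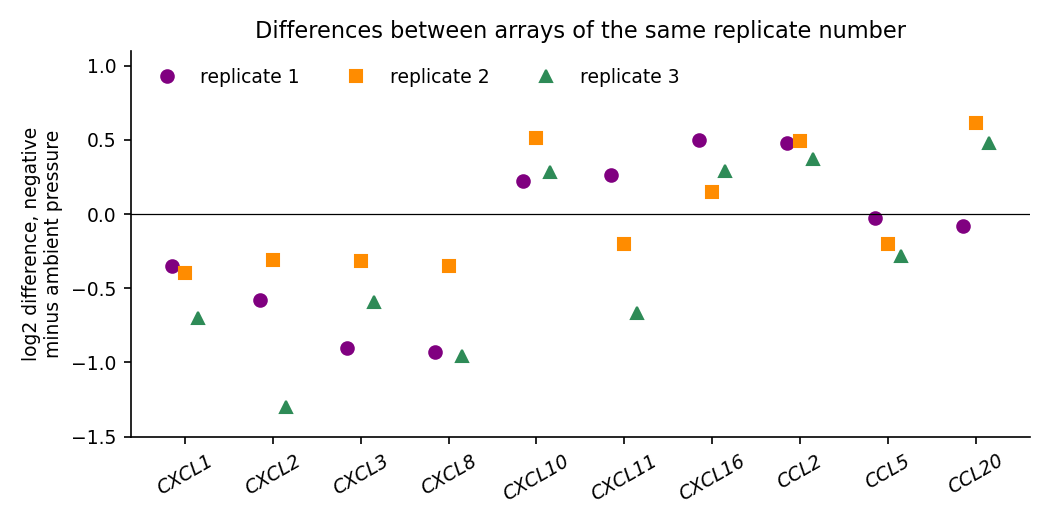
Log2 difference, negative minus ambient pressure, between the arrays of the same replicate number for each chemokine (1 symbol per replicate number). CXCL1, CXCL2, CXCL3 and CXCL8 are below 0 and CXCL10, CXCL16 and CCL2 above 0 in all 3 replicate numbers.

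Most chemokine genes lie in clusters of tandem copies, and the members were set beside their neighbours. In the chromosome 4 cluster the order in RefSeq is CXCL8, CXCL6, PF4V1, CXCL1, PF4, PPBP, CXCL5, CXCL3 and CXCL2. The 4 members of this cluster stood between -0.75 and -0.48. CXCL6, a neutrophil attractant that also binds CXCR1 and CXCR2 and lies beside CXCL8, stood at 0.26 (8.16, 8.42 and 7.50 under negative pressure, against 7.90, 7.81 and 7.59 at ambient pressure; 95% interval -0.23 to 0.75; limma adjusted p = 0.767). The difference between CXCL6 and its neighbours was not tested. CXCL5, also a CXCR2 ligand, stood at 0.03, the platelet chemokine PF4 at 0.12, PF4V1 at 0.03 and PPBP at -0.37. PPBP was very dim, with a mean of 1.62 under negative pressure and 1.99 at ambient pressure, and its groups did not overlap (95% interval -0.77 to 0.04; limma adjusted p = 0.487). On the same chromosome CXCL9, CXCL10 and CXCL11 follow each other and stood at -0.06, 0.34 and -0.21. On chromosome 17, CCL7, a monocyte attractant and the neighbour of CCL2, stood at 0.36 (limma adjusted p = 0.432) with overlapping groups.

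**Figure D4:**
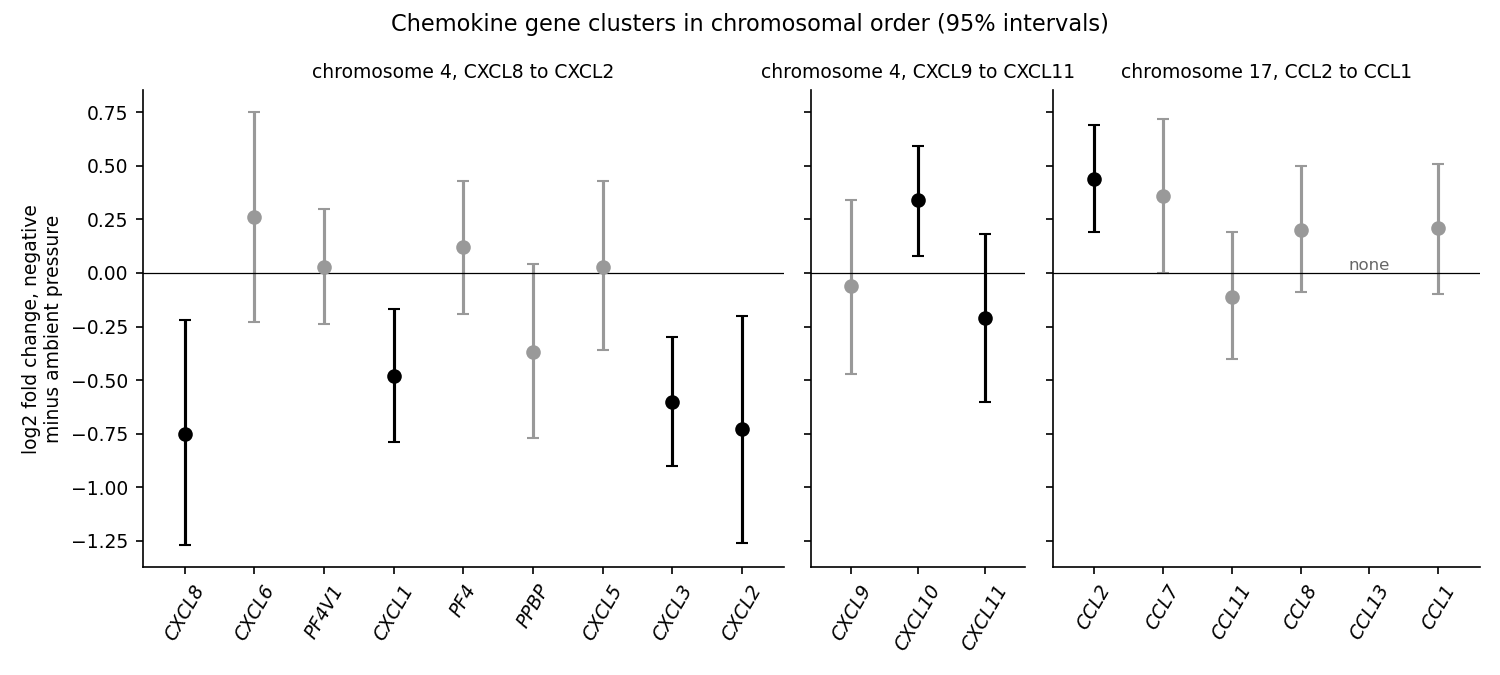
Log2 fold change (negative minus ambient pressure) with 95% intervals for chemokine genes in chromosomal order; black marks the 10 members, grey other chemokines, and "none" a gene with no probe set of its own. CXCL8, CXCL1, CXCL3 and CXCL2 lie below 0, and of the genes between them CXCL6, PF4V1, PF4 and CXCL5 lie near or above 0 while PPBP lies at -0.37. Of these genes between them, all but CXCL6 had dim signals.

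Of 29 other chemokines measured, 2 had an unadjusted p under 0.05 in limma, against 11.7% of all genes. Of the 29, 1 rose and none fell, against 0.607% of all genes that rose and 0.314% that fell. The 1 was CCL26, eotaxin-3, a CCR3 ligand that attracts eosinophils and is induced by interleukin-4 and interleukin-13. CCL26 measured 5.10, 5.38 and 5.50 under negative pressure, against 3.88, 3.77 and 4.32 at ambient pressure. The groups were far apart, with a log2 fold change of 1.33 ± 0.17 (SE; 2.52-fold; limma adjusted p = 0.0157), more than that of any of the 10 members. The CCL26 signal was dim, with a mean of 4.66 over all arrays, above 45.9% of genes and below that of CD3E (4.87). None of 21 chemokine receptors passed, and 1 had an unadjusted p under 0.05 in limma, against 11.7% of all genes. Receptors of the members stood close to 0: CXCR2 at 0.20, CXCR3 at -0.04, CXCR6 at 0.09, CCR2 at -0.02 and CCR6 at 0.00, with limma adjusted p from 0.783 to 0.999. Their signals were dim, with means of 3.16, 4.08, 4.47, 3.01 and 1.92 in that order. These means were above 6.73% (CCR6) to 43.5% (CXCR6) of genes, so the values do not show receptors that were expressed and unchanged. The decoy receptors ACKR1, ACKR2 and ACKR3, which bind chemokines without classical signalling, stood at 0.20, 0.06 and 0.12.

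Among 25 cytokines and receptors that induce chemokines, 1 rose and 2 fell, against 0.607% and 0.314% of all genes. Of the 25, 8 had an unadjusted p under 0.05 in limma, against 11.7% of all genes. The 2 that fell were the interleukin-1 genes. IL1A measured 9.77, 9.69 and 9.26 under negative pressure, against 10.48, 10.65 and 10.42 at ambient pressure (log2 fold change -0.94 ± 0.15, SE; limma adjusted p = 0.0299). IL1B measured 10.28, 10.05 and 10.11, against 10.73, 10.87 and 10.76 (-0.64 ± 0.12; 0.0413), and its other probe set gave -0.62. Interleukin-1 is an inducer of CXCL8 and of the GRO chemokines, and these transcripts stood lower on the same arrays. The other members did not share 1 direction. CCL2, CXCL10, CXCL16 and CCL20 stood above 0 (0.44, 0.34, 0.31 and 0.33), and CXCL11 and CCL5 below 0 (-0.21 and -0.17). CXCL6 stood at 0.26. Whether the interleukin-1 and chemokine changes are linked was not tested. TLR3, the receptor for double-stranded RNA, rose by 0.78 ± 0.13 (SE; limma adjusted p = 0.0325), and TNF stood at -0.28 (0.619). With the replicate block IL6, an inflammatory cytokine, rose too (0.46, limma adjusted p = 0.0360, against 0.208 without the block), as did TNFRSF1A, the main TNF receptor (0.48; 0.0339, against 0.283).

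None of 19 NF-kappa B pathway genes passed, and 2 had an unadjusted p under 0.05 in limma, against 11.7% of all genes. The subunit genes RELA and NFKB1 stood at -0.02 and 0.12, and the inhibitor gene NFKBIA, itself a target of the pathway, at 0.27 (limma adjusted p = 0.695). TNFAIP3, which encodes the feedback inhibitor A20, stood at -0.33 (0.403). NFKBIZ, a nuclear co-activator of part of the NF-kappa B targets, stood at -0.57 (0.115) and fell with the replicate block (0.0279). None of 9 regulators of AU-rich mRNAs passed, and 1 had an unadjusted p under 0.05 in limma, against the same 11.7%. ZFP36, which promotes decay of chemokine and cytokine mRNAs, stood at 0.47 ± 0.21 (SE; limma adjusted p = 0.430) and rose with the replicate block (0.0290).

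Of 10 AP-1 and C/EBP genes, 3 rose and 1 fell, against 0.607% and 0.314% of all genes. Of the 10, 8 had an unadjusted p under 0.05 in limma, against 11.7% of all genes. FOSL1 fell by 1.04 on the log2 scale (limma adjusted p = 0.0467), while JUNB rose by 0.67 (0.0396), CEBPB by 0.74 (0.0247) and CEBPD by 0.68 (0.0325). The FOSL1 difference was largest in replicate 3 (-0.58, -0.83 and -1.70 in replicates 1, 2 and 3). With the replicate block JUN fell as well (-0.71; limma adjusted p = 0.0110, against 0.138 without it) and FOSL2 rose (0.50; 0.0336, against 0.249). Of 19 genes of the interferon axis, 1 rose and none fell, against 0.607% and 0.314% of all genes, with a list median of 0.24. Of these 19, 10 had an unadjusted p under 0.05 in limma, against 11.7% of all genes. In the same list 8 were wholly higher under negative pressure (10.3% of all genes) and 1 was wholly lower (6.96%). The 1 that rose was IRF1, an activator of interferon-stimulated genes that include CXCL10, at 8.19, 8.11 and 8.74 under negative pressure, against 7.30, 7.40 and 7.29 at ambient pressure (log2 fold change 1.02 ± 0.17, SE; limma adjusted p = 0.0318). The IRF1 difference was also largest in replicate 3 (0.89, 0.71 and 1.45 in replicates 1, 2 and 3). With the replicate block 3 genes of this axis rose (2.87% of all genes): IRF1, IRF9 and SOCS1. IRF9 stood at 0.45 (limma adjusted p = 0.0350, against 0.140 without the block) and SOCS1 at 0.41 (0.0488, against 0.310). MX1 fell in that fit (-0.56; 0.0352, against 0.252). None of the 7 shedding and binding genes, which include the syndecans, passed, and none of them had an unadjusted p under 0.05 in limma.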

How the data were processed

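RNA of 6 HaCaT cultures was measured on Affymetrix arrays. The authors deposited log2 values per probe set; the submitters' processing notes name RMA and Affymetrix Expression Console 1.2, and RMA corrects background, normalizes between arrays and summarises probes. Any filter is not given in the sources used here. Groups and replicate numbers came from the sample titles, which call the replicates biological. Here each of 19775 genes was read from its probe set of highest mean among those that name it alone, and the groups were compared with limma 3.58.1 (lmFit, eBayes) in R 4.3.3 with Benjamini-Hochberg adjustment over all genes at 0.05. A second fit covered 54613 probe sets, leaving out 62 controls. No low values were filtered. RMA pulls dim and saturated signals toward common values, which can make folds smaller. The number of arrays limits the precision.

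Deviations from the group means correlated across genes at 0.27, 0.27 and 0.53 between same-numbered arrays. Each was above 0.1, so the replicate block was fitted as an alternative that takes the numbers as pairs. The labels state no shared day or batch, and arrays of unlike number were not compared. A shift shared by both replicate 3 arrays would by itself also give positive values for replicates 1 and 2. The correlations therefore do not show that replicates 1 and 2 are paired. Other alternatives were scalings, a filter, other probe set rules, array weights, variance priors and arrays left out. The members, lists and rule for named genes (all members, list genes past the threshold and a fixed set of regulators and receptors) were chosen with earlier results of these data known. NFKBIZ, IL6, TNFRSF1A, JUN, FOSL2, IRF9, SOCS1, CXCL6, CXCL5, CXCL9, PF4, PF4V1, PPBP, CCL7, MX1 and CDH5 were named outside that rule after their values were seen. The same holds for DSG3 in the closing observations. Promoters came from RefSeq tables and were searched and aligned in Python 3.11.15 with Biopython 1.88.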

Additional observations from a re-analysis of the deposited data

How the results depend on the processing

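The direction of every member but CXCL11 was kept under all alternatives run; CXCL11 stood at 0.03 without both replicate 3 arrays, with or without the replicate block. No member passed in the main comparison, after centring, cyclic loess, the filter, the other probe set rules, the trend and robust prior or with any array left out. Of the 10 members 5 passed with the replicate block, with array weights and with replicate 3 as a batch term. Of the 16 probe sets 2, 2 and 7 passed, and the cause was not tested. The share over all probe sets was 2.27% with the block and was not counted for array weights or the batch term. Over all genes 976 passed with the replicate block, 1145 with array weights, 7 to 145 with 1 array left out, 372 without both replicate 3 arrays, 422 with the block but without them and 1213 with the batch term, against 182. The last 2 alternatives were chosen after seeing the data.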

Other observations

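Among the markers of other cell types, the cadherin gene CDH5, which marks endothelial cells, was lower under negative pressure (4.25, 3.92 and 3.86, against 4.90, 4.72 and 4.81 at ambient pressure). Its log2 fold change was -0.80 ± 0.13 (SE, n = 3 each; limma adjusted p = 0.0325), at a dim signal. The endothelial markers PECAM1 and VWF stood at -0.13 and 0.03 and did not pass. DSG3, a desmosomal cadherin of basal keratinocytes, stood at 0.63 ± 0.17 (SE; limma adjusted p = 0.153, with the replicate block 0.0146).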
